A study of Mus musculus with 2 samples.

Results

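Cytoplasmic ribosomal protein genes were examined in the livers of FHL2-/- and wild-type mice. They were taken as every probe set (called a probe here) annotated to a single gene symbol that starts with Rpl or Rps and a number, or is Rpsa, Rplp0, Rplp1 or Rplp2, without the Rps6k kinases and without symbols ending in -ps and a number. This gave 219 probes of 63 genes, out of 21789 probes of 19938 genes with 1 symbol. Of the 63 genes, 33 encode proteins of the large subunit and 21 proteins of the small subunit, and the other 9 are paralogs, retroposed copies or a gene named for its binding partner. The 54 subunit genes are called canonical below.

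The study set liver RNA of a pool of FHL2-/- mice (the FHL2 KO pool) against liver RNA of a pool of wild-type mice (the WT pool). Per the labels, both pools combined 3 males of 10 to 11 weeks on a hybrid Black Swiss/129-SV/J background, and the left lobe was used. Each pool was hybridised to 1 Affymetrix array, so there is no replicate, pooling hides the spread between mice, and the differences below carry no test. Every difference is the log2 value of the FHL2 KO pool minus that of the WT pool.

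Ribosomal proteins hold the ribosomal RNAs in shape and line the sites where messenger RNA enters and the new chain leaves. In mammals each is made from a single intron-bearing gene as a rule, while the genome also carries many retroposed copies of these messages. Their messages begin at the cap with a run of pyrimidines, the 5′ terminal oligopyrimidine (TOP) element, through which the kinase TOR and the RNA-binding protein Larp1 set their translation and stability. In liver, which secretes much of the protein in plasma, these messages are among the abundant ones.

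The start of transcription is shown for 7 members because the TOP element lies there. The windows run from 15 bases before the annotated start to 15 bases from it on, in the mouse RefSeq promoter table of build GRCm38.p6. Capitals mark a C that lies within 5 bases of the start, with at least 5 bases after it that are each C or T. In Rpl7a the C and T letters also extend before the marked run, outside that limit.
Rps6 (chr4:86857353-86857382, minus strand): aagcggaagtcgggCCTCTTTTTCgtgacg
Rpl7a (chr2:26910792-26910821, plus strand): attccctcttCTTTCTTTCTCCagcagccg
Rps10 (chr17:27635230-27635259, minus strand): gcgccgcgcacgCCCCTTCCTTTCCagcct
Rplp2 (chr7:141447636-141447665, plus strand): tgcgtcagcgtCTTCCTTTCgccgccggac
Rps13 (chr7:116334176-116334205, minus strand): gagagcaaacgtcggtgagtggcgtcactt
Rps4x (chrX:102189377-102189406, minus strand): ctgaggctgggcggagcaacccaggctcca
Rpl10l (chr12:66284387-66284416, minus strand): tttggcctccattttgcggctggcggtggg
The windows of Rps6, Rpl7a, Rps10 and Rplp2 hold such a run at the start, and those of Rps13, Rps4x and Rpl10l do not hold these letters there.

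Of the canonical genes, 43 matched the promoter table, with 50 promoters. A run that begins within 5 bases of the start, on the transcribed strand, was in 16 of the 50 (32%), against 10.2% of all 32851 promoters. The letters CCGGAAG, a core bound by ETS-family factors, were found on either strand in 18 of the 50 promoters (36%) and in 8.86% of all promoters. On the other strand this core reads CTTCCGG, whose leading CTTCC can form the end of a run. The 15 canonical genes with a run had a median difference of -0.0028, with 8 of them below 0. The 28 without a run had a median of -0.07, with 22 below 0. For CCGGAAG the medians were -0.05 in 17 genes with it, 12 of them below 0, and -0.04 in 26 genes without it, 18 of them below 0. Neither split was tested. An annotated start that is off by a few bases hides a run, so absence from the window says nothing of the message itself.

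The canonical genes as a group were slightly lower in the FHL2 KO pool. Their median difference was -0.06 on the log2 scale, against 0.04 over all 11924 genes past the level filter, which asks for a mean level of at least 5.44. All 54 canonical genes passed that filter. Below 0 lay 38 of the 54 (70.4%), against 40.4% of all genes. Large steps were rare: 5 of the 54 were at least 0.2 lower (9.26%), close to the 9.76% of all genes, and 3 were at least 0.2 higher (5.56%), against 15.4% of all genes. None of the 54 reached 1.5-fold in either direction, a size that 0.335% of all genes reached on the lower side and 0.621% on the higher side.

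The members sat at the bright end of the array. The large subunit genes ranged from 6.07 to 12.6 in the FHL2 KO pool, with a median of 11.3, and from 5.92 to 12.7 in the WT pool, with a median of 11.3. The small subunit genes ranged from 8.56 to 12.4 in the FHL2 KO pool (median 11.6) and from 8.59 to 12.3 in the WT pool (median 11.7). The ranges of the pools overlap almost wholly in both subunits. Probe values depend on the probes as well as on the message, so an order of probe values between genes is not an order of their messages.

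Other genes were cut at the same level, without matching levels above the cut. Whether level plays a part was not tested. Of the 866 other genes with a mean level of 10 or more, 300 were below 0 (34.6%), and their median difference was 0.04. Of the 45 canonical genes at that level, 35 were below 0 (77.8%), with a median of -0.07. The 9 canonical genes below a level of 10 had a median of 0.09, and 6 of these 9 were above 0. All 3 canonical genes that were at least 0.2 higher (Rpl30, Rplp2 and Rpl34) were among these 9. Over all genes past the filter the median was 0.04, and 7099 of 11924 were above 0. Other genes below a level of 10 were not summarised apart.

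**Figure D1:**
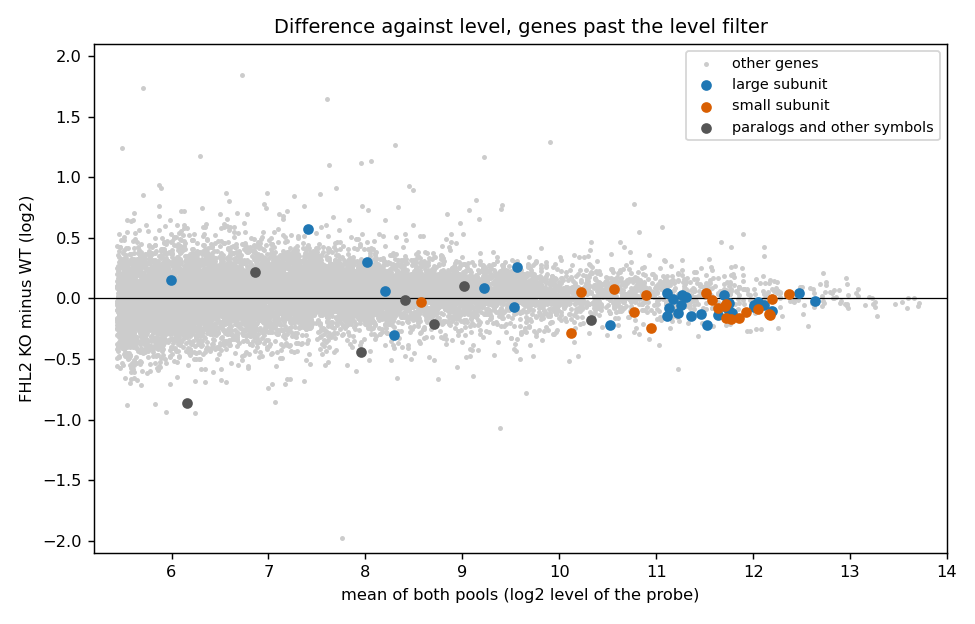
Difference (FHL2 KO minus WT, log2) against the mean log2 level of both pools for each gene past the level filter, with large subunit genes in blue, small subunit genes in orange, the paralogs in dark grey and other genes in light grey. Of the 45 canonical genes at a level of 10 or more, 35 lie below the zero line, and 6 of the 9 dimmer ones lie above it. Of all 11924 genes past the filter, 7099 lie above it.

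Markers of other cell types differed in the same comparison, and their values stand beside this result. Each count of lower markers here stands against 40.4% of all genes past the filter below 0. All 7 Kupffer cell and macrophage markers were lower in the FHL2 KO pool, by a median of -0.28, but not evenly. Of the 7, 5 were at least 0.2 lower (71.4%, against 9.76% of all genes), while Clec4f was at -0.15 and Cd5l at -0.0077. The summed linear signal of the 7 was 2047 in the FHL2 KO pool and 2387 in the WT pool. Markers of T and NK cells were lower for 4 of 5 genes (summed signal 177 in the FHL2 KO pool and 199.9 in the WT pool), with 3 of the 5 past the level filter. All 4 markers of dividing cells were lower (143 in the FHL2 KO pool and 162 in the WT pool), but 1 of the 4 passed the filter. Summed signals were 155 in the FHL2 KO pool and 153 in the WT pool for 5 B and plasma cell markers. For 7 muscle markers they were 305 in the FHL2 KO pool and 322 in the WT pool, and the red cell gene Alas2 was at 9.89 in the FHL2 KO pool and 9.60 in the WT pool. A value above 0 does not show that a cell type was present. The T and NK cell marker Klrb1c, under the level filter of 5.44, was at 3.90 in the FHL2 KO pool and 3.71 in the WT pool. The part of these cells in the ribosomal protein result was not tested, and in whole tissue fewer cells of a type and less RNA per cell cannot be told apart. The 6 hepatocyte markers, among them Alb at 13.7 in both pools, had a median difference of -0.06, with 5 of the 6 below 0. Fhl2 was at 5.33 in the FHL2 KO pool and 5.30 in the WT pool, under the level filter, and since the labels do not say which part was deleted, its probe checks nothing.

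Large subunit genes had a median difference of -0.05, and 22 of the 33 were below 0. The 6 with the most negative values were led by Rpl29, known also for binding heparin. Rpl29 was at 8.14 in the FHL2 KO pool and 8.44 in the WT pool, a difference of -0.30, or 1.23-fold lower. Its 1 probe is numbered away from its gene, in the sense explained below. Rpl21, the gene of a protein mutated in a human hair loss disorder, was at 11.4 in the FHL2 KO pool and 11.6 in the WT pool, a difference of -0.22. All 9 probes of Rpl21 were below 0, between -0.26 and -0.02.

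Rpl7a was at 10.4 in the FHL2 KO pool and 10.6 in the WT pool, also a difference of -0.22. The other 2 Rpl7a probes were at -0.09 and 0.0016, so its value rests on the probe chosen. The next 3 lay close together. Rpl36a, from the X chromosome, was at 11.3 in the FHL2 KO pool and 11.4 in the WT pool, a difference of -0.15. Rpl24, which forms a bridge between the subunits, was at 11.0 in the FHL2 KO pool and 11.2 in the WT pool, a difference of -0.14. Rpl7 was at 11.6 in the FHL2 KO pool and 11.7 in the WT pool, a difference of -0.13, and its 4 probes lay between -0.17 and -0.09.

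Rpl5, which carries the 5S RNA into the subunit and binds the p53 regulator Mdm2 when assembly stalls, was at 11.7 in the FHL2 KO pool and 11.8 in the WT pool. Its difference was -0.12, and its 5 probes ran from -0.35 to -0.12. Rpl23a, a docking site of the signal recognition particle at the tunnel exit, was at 11.2 in the FHL2 KO pool and 11.3 in the WT pool, a difference of -0.12. All of its 13 probes, 11 of them with distinct values, lay below 0. For both genes the direction was therefore shared by every probe. Rpl10, a late-joining protein needed before the subunits meet, held the largest probe value among canonical genes, at 12.6 in the FHL2 KO pool and 12.7 in the WT pool, with a difference of -0.02. The sign of Rpl10 turns when both arrays are shifted to a common median, as do those of Rpl4, Rpl9, Rpl38, Rps15a, Rps18 and Rps28.

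On the higher side stood Rpl30, which in yeast regulates the splicing of its own message. Rpl30 was at 7.69 in the FHL2 KO pool and 7.12 in the WT pool, a difference of 0.57, or 1.48-fold higher. This was the difference furthest from 0 among the canonical genes, and it came from 1 probe. Rplp2, an acidic protein of the stalk that recruits elongation factors, was at 8.17 in the FHL2 KO pool and 7.87 in the WT pool, a difference of 0.30. Its stalk partners did not share that size: Rplp0 was at 11.3 in both pools (difference 0.01) and Rplp1 was at 12.5 in both pools (difference 0.04). The 2 Rplp1 probes disagreed in sign, at 0.04 and -0.17.

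Rpl34 was at 9.69 in the FHL2 KO pool and 9.43 in the WT pool, a difference of 0.26. Rpl12, which anchors the stalk at its base, had the lowest probe value among canonical genes, at 6.07 in the FHL2 KO pool and 5.92 in the WT pool, a difference of 0.15. Rpl30, Rplp2, Rpl34 and Rpl12 each have 1 probe with a single symbol, so none of these values has a repeat.

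Small subunit genes had a median difference of -0.08, and 16 of the 21 were below 0. The large minus small subunit median was 0.02, a difference that was not tested. It was 0.06 when genes were read only from probes numbered beside them (explained below), with medians of -0.01 for 28 large and -0.07 for 20 small subunit genes. Single genes had an SD of 0.16 in the large and 0.10 in the small subunit. Rps3a1 was at 9.98 in the FHL2 KO pool and 10.3 in the WT pool, a difference of -0.28, or 1.22-fold lower, from 1 probe. Rps13 was at 10.8 in the FHL2 KO pool and 11.1 in the WT pool, a difference of -0.25, and its 3 probes lay between -0.31 and -0.19. These were the 2 small subunit genes at least 0.2 lower, and no small subunit gene was as much higher. All 5 canonical genes at least 0.2 lower (Rpl29, Rpl21, Rpl7a, Rps3a1 and Rps13) were read from probes numbered away from their genes, and 4 of the 5 have no other kind. The Rps13 probe beside its gene was at 9.29 in the FHL2 KO pool and 9.48 in the WT pool, a difference of -0.19.

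Rps25, used by some viral messages to start translation without a cap, was at 11.7 in the FHL2 KO pool and 11.9 in the WT pool, a difference of -0.17. Its 6 probes were at -0.23 to -0.15. Rps4x, from the X chromosome, was at 11.8 in the FHL2 KO pool and 11.9 in the WT pool, a difference of -0.16, and its 5 probes were at -0.24 to -0.16. The probes of these 2 genes all lay on the lower side, with a narrow spread. Rps15, which takes part in export of the small subunit from the nucleus, was at 11.6 in the FHL2 KO pool and 11.8 in the WT pool, a difference of -0.16, with its 3 probes at -0.16 to -0.06.

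Rps14, lost in a human anaemia with a deletion on the long arm of a chromosome, was at 12.1 in the FHL2 KO pool and 12.2 in the WT pool, a difference of -0.14. Rps6, the small subunit protein that S6 kinase phosphorylates, was at 12.1 in the FHL2 KO pool and 12.2 in the WT pool, a difference of -0.13. Its 8 probes spread widely, with a lowest value of -0.50, a median of -0.12 and a highest value of 0.01. A single probe, at 10.2 in the FHL2 KO pool and 10.7 in the WT pool, gave that lowest value.

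The small subunit genes above 0 were few and close to it. Rps3, which lines the entry of the messenger RNA channel, was at 10.6 in the FHL2 KO pool and 10.5 in the WT pool, a difference of 0.08. Rps19, mutated in human Diamond-Blackfan anaemia, was at 10.3 in the FHL2 KO pool and 10.2 in the WT pool, a difference of 0.05. Rps9 and Rps2, both near the messenger RNA channel, had differences of 0.04 each, and their other probes reached down to -0.09 and -0.12. Rps21 had a difference of 0.03, with its other probe at -0.16.

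**Figure D2:**
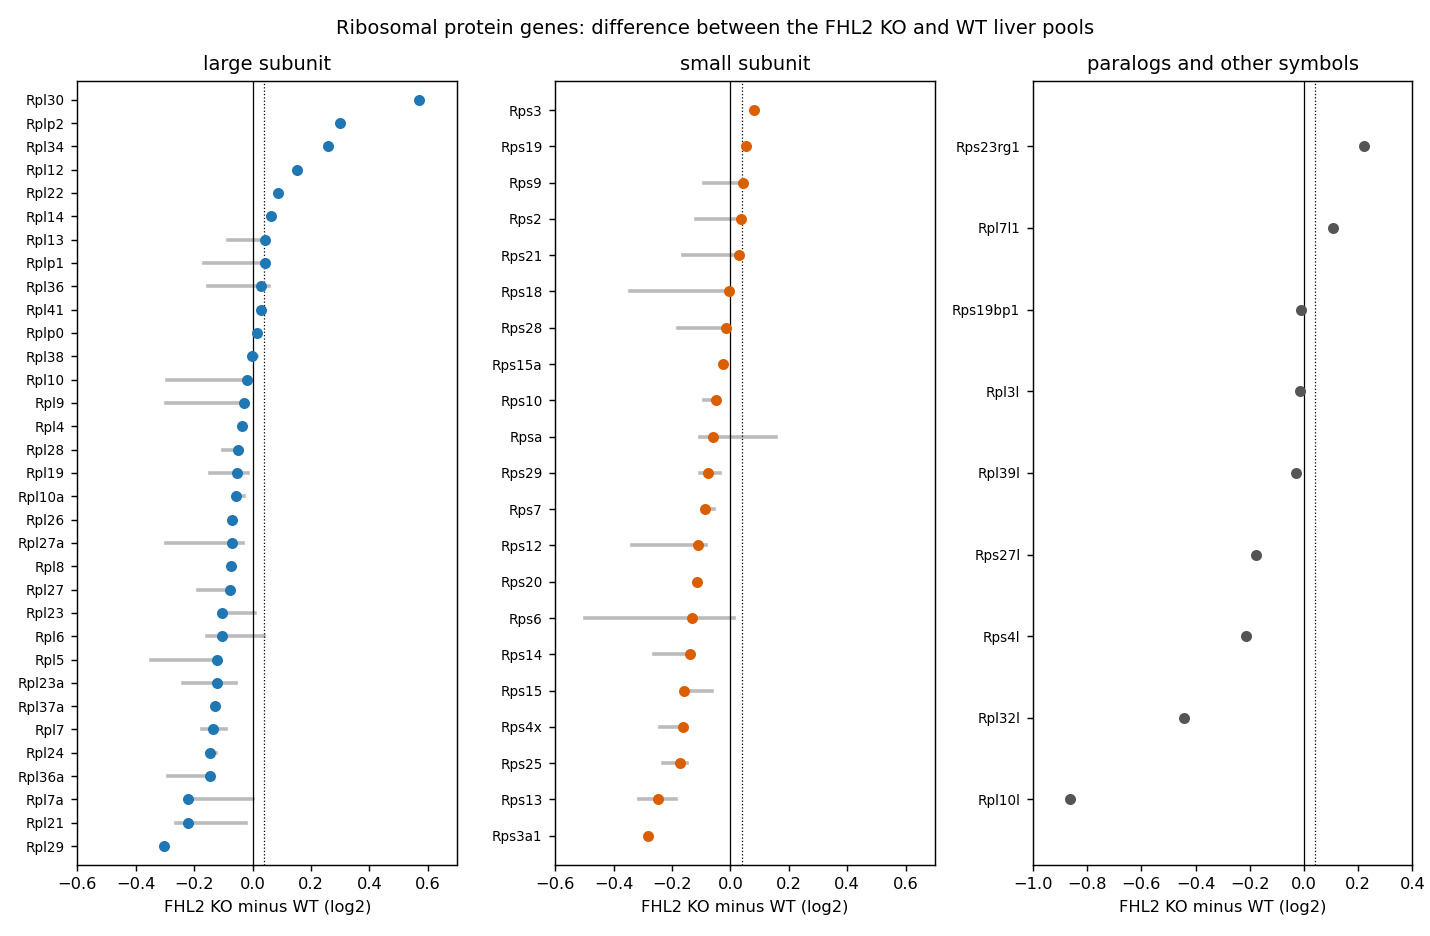
Difference (FHL2 KO minus WT, log2) of each of the 63 genes, from the probe with the highest mean, in panels for the large subunit, the small subunit and the paralogs and other symbols, with grey bars from the lowest to the highest probe of a gene and a dotted line at the median of all genes (0.04). Points run from -0.30 to 0.57 in the large and from -0.28 to 0.08 in the small subunit, and Rpl10l stands at -0.86 among the paralogs.

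The 9 members that are not canonical subunit genes behaved less alike. Rpl10l, a retroposed copy of Rpl10 known for its role in male germ cells, was at 5.73 in the FHL2 KO pool and 6.59 in the WT pool. It was 1.82-fold lower and was the 1 member past 1.5-fold. Testis germ cell markers had a median difference of -0.02 over 6 genes and a summed signal of 219 in the FHL2 KO pool and 227 in the WT pool. Of these 6, 2 passed the level filter, both below 0 with a median of -0.08, and their part in the Rpl10l value was not tested. The value of Rpl10l comes from 1 probe.

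Rpl32l, a gene named for its likeness to Rpl32, was at 7.73 in the FHL2 KO pool and 8.18 in the WT pool, a difference of -0.44. Rps4l, which RefSeq lists as a transcribed pseudogene, was at 8.60 in the FHL2 KO pool and 8.81 in the WT pool, and its 2 probes gave -0.21 and -0.20. Rps27l, a paralog of Rps27 known as a p53 target, was at 10.2 in the FHL2 KO pool and 10.4 in the WT pool, a difference of -0.18. Of the 9, 7 were below 0, and these 3 and Rpl10l stood furthest from it on that side. A copy and its parent gene can have near-identical transcripts, so the values of both are uncertain.

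Rps23rg1, a retroposed copy of Rps23, lay on the other side, at 6.97 in the FHL2 KO pool and 6.75 in the WT pool, a difference of 0.22. Rpl7l1, a paralog of Rpl7 thought to act in the nucleolus, was at 9.07 in the FHL2 KO pool and 8.96 in the WT pool, a difference of 0.11. Rps19bp1, a protein that binds Rps19 and the deacetylase SIRT1, was at 8.40 in the FHL2 KO pool and 8.42 in the WT pool, a difference of -0.01. Rpl3l, the striated muscle counterpart of Rpl3, was at 4.59 in the FHL2 KO pool and 4.61 in the WT pool, and Rpl39l, a germ cell counterpart of Rpl39, at 4.05 in the FHL2 KO pool and 4.08 in the WT pool. Rpl3l and Rpl39l are the 2 members that did not reach the level filter, which leaves 61 of the 63.

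Agreement between probes of a gene is the only repeat measurement on these arrays. Of the 54 canonical genes, 38 had several probes, 193 in all. Every probe lay below 0 for 24 of these 38 genes and above 0 for 2 genes (Rplp0 and Rpl41), and 12 genes had probes on both sides. The pooled SD of the difference between probes of a canonical gene was 0.08, against 0.14 over the 660 genes of the series with several probes past the filter. These SDs were not matched for level. The median level in the FHL2 KO pool was 11.5 for canonical genes and 7.38 for all genes past the filter. The pooled SD was 0.07 in the large and 0.09 in the small subunit. The spread between animals and between arrays is unknown. Of all 209 canonical probes, 178 were below 0, but this counts repeated values, and 197 of the 209 were distinct. The share below 0 over all probes of the series was not computed. Of all genes past the filter, 40.4% were below 0.

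The remaining genes with several probes show how far that agreement went. Every probe was below 0 for Rpl27a (9 probes, -0.30 to -0.03), Rpl19 (7 probes, -0.15 to -0.02), Rpl28 (5 probes, -0.10 to -0.04) and Rpl10a (4 probes, -0.06 to -0.03). The same held for Rps29 (4 probes, -0.10 to -0.03) and Rps7 (3 probes, -0.09 to -0.06). Rpl9 spread more widely on that side, with 8 probes from -0.30 to -0.03.

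Probes of 4 further genes lay on both sides of 0, and those of Rpl38 did so within a narrow range. Rpl36 had 9 probes from -0.15 to 0.06, and Rpl13 had 9 probes from -0.08 to 0.04. Rpl6, at 11.7 in the FHL2 KO pool and 11.8 in the WT pool by its brightest probe, had 3 probes from -0.16 to 0.04. Rpl23, at 12.1 in the FHL2 KO pool and 12.2 in the WT pool, had probes at -0.11 and 0.0084. The 4 probes of Rpl38 ran from -0.0088 to 0.01.

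Many of these probes are not independent. In 5 genes, 19 probes gave values identical to those of another probe of the gene on both arrays, and the 3 probes of Rpl41 all had the same pair of values. Rps12 had 14 probes with 8 distinct pairs of values, Rpl23a 13 probes with 11, and both Rpl27 and Rps28 had 1 repeated pair. The values of such repeats count as a single measurement.

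The probe numbers of this array follow the chromosomes, which gives a further view of the repeats. A probe was called numbered beside its gene when at least 5 of the 10 probes nearest by number, ribosomal protein genes left out, belong to other genes within 3 megabases of it on the GRCm38.p6 assembly. This held for 93.6% of the probes of all other genes but for 48 of the 209 canonical probes (23.0%). The other 161 canonical probes failed this rule and are called numbered elsewhere, or away from the gene. The positions of the probes themselves were not available. For 31 of the 54 canonical genes the probe with the highest mean, which represents the gene above, is numbered elsewhere.

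The 2 kinds of probes differed in value. Probes beside the gene had a median difference of -0.04, and 29 of the 48 were below 0. The 13 genes that have no other kind had a median of 0.06, and 8 of the 13 were above 0. This is close to all genes past the filter, with a median of 0.04 and 7099 of 11924 above 0. All 13 have 1 probe. Rpl12, Rpl14, Rpl22, Rpl26, Rpl30, Rpl34, Rplp2 and Rps15a are among both these 13 and the 9 canonical genes below a level of 10. Place, low level and having 1 probe therefore cannot be told apart in these genes. Probes numbered elsewhere had a median of -0.11, and 149 of the 161 were below 0, repeated values included. Their median levels were 10.8 for probes beside the gene and 11.1 for probes elsewhere. In the 35 genes with both kinds, the probe beside the gene lay above the mean of the others in 29 genes, by a median of 0.06.

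Rpsa, a small subunit protein first described as a laminin receptor, had the widest gap. Its probe beside the gene was at 10.1 in the FHL2 KO pool and 9.94 in the WT pool, a difference of 0.16, while its 4 probes elsewhere lay between -0.10 and -0.03. Rplp1 and Rps21 came next, with gaps of 0.21 and 0.19. Rps18 ran the other way: its probe beside the gene was at 11.5 in the FHL2 KO pool and 11.8 in the WT pool, a difference of -0.23, and its 6 probes elsewhere averaged -0.11. The sign of a member such as Rpsa, Rplp1 or Rps21 thus depends on the probe read.

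**Figure D3:**
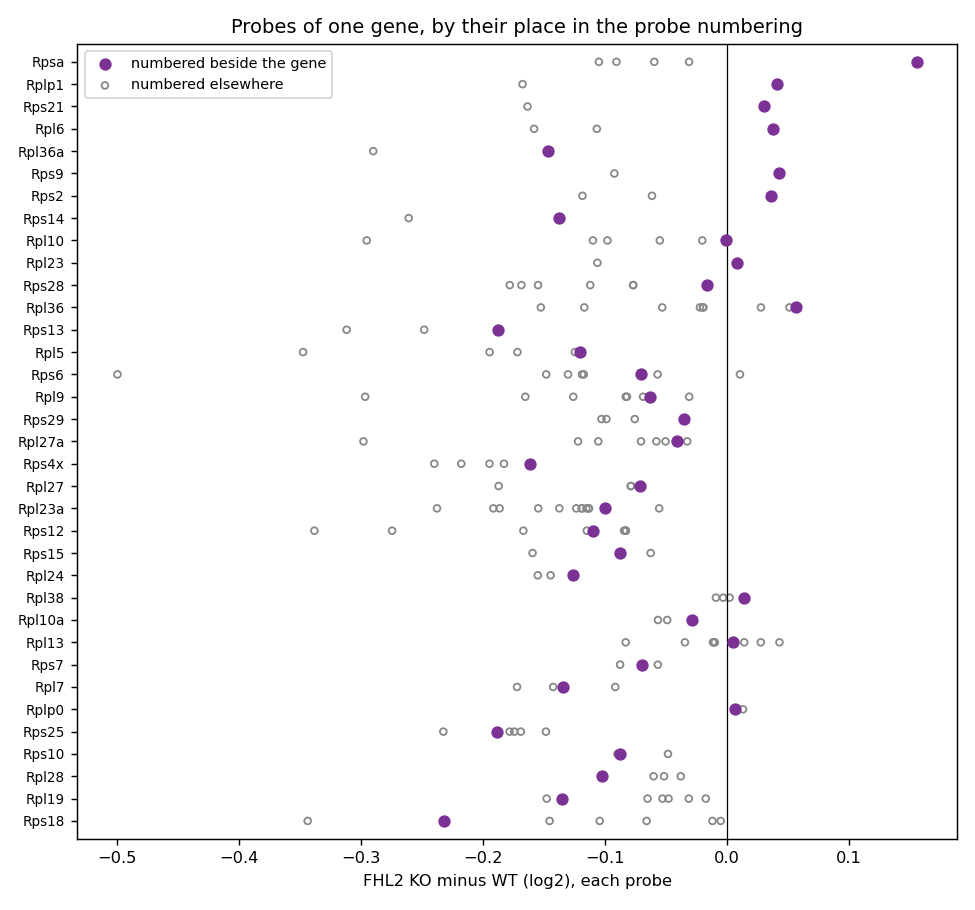
Difference (FHL2 KO minus WT, log2) of every probe of the 35 canonical genes that have both kinds, with a filled point for the probe numbered beside the gene and open circles for probes numbered elsewhere. The filled point lies above the mean of the open circles in 29 of the 35 genes, with Rpsa at the top and Rps18 at the bottom.

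Other parts of the translation machinery give the setting for these values, and each list was compared with the same background of all genes. Of 25 measured translation factors and other genes known for TOP messages, 18 were below 0 (72%, against 40.4% of all genes), with a median of -0.05. Eef1b2 and Eef1a1, subunits of the factor that brings aminoacyl-tRNA, had differences of -0.26 and -0.25, and Naca, which shields new chains at the exit, of -0.23. Eef1d, another subunit of that factor, had a difference of 0.30, the most positive value of the list. Fau, whose product includes a small subunit protein fused to a ubiquitin-like part, was at 10.8 in both pools, with a difference of 0.03.

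Mitochondrial ribosomal protein genes, which serve a separate ribosome, had a median of -0.0068 over 77 genes, with 41 (53.2%) below 0. Among them the differences of Mrps34 at -0.41, Mrpl30 at -0.38, Mrps36 at -0.30 and Mrpl22 at 0.32 stood furthest from 0. Proteasome genes had a median of -0.01 over 37 genes, with 21 (56.8%) below 0, against 40.4% of all genes. Both medians lay between that of the canonical ribosomal protein genes and that of all genes.

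Ribosome biogenesis genes, which make and process ribosomal RNA in the nucleolus, had a median of 0.07 over 51 genes, and 17 (33.3%) were below 0. At least 0.2 higher were 9 of the 51 (17.6%), close to the 15.4% of all genes. As much lower were 0 of them, against 9.76% of all genes. Utp14a, a small subunit processing factor, had a difference of 0.49, the box C/D protein Nop58 at 0.42, the RNA polymerase I factor Rrn3 at 0.38 and Utp4 at 0.36. The list of TOR regulators had a median of 0.07 over 20 genes, with 7 (35%) below 0, against 40.4% of all genes. It also holds effectors such as Larp1 and mixes both directions of action, so its median does not measure TOR activity. At least 0.2 higher were 5 of the 20 (25%, against 15.4%), and 0 were as much lower. Ddit4, an inhibitor of TOR complex 1, was at 6.79 in the FHL2 KO pool and 6.37 in the WT pool, a difference of 0.42, and Larp1 was at 9.80 in the FHL2 KO pool and 9.92 in the WT pool, a difference of -0.12.

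**Figure D4:**
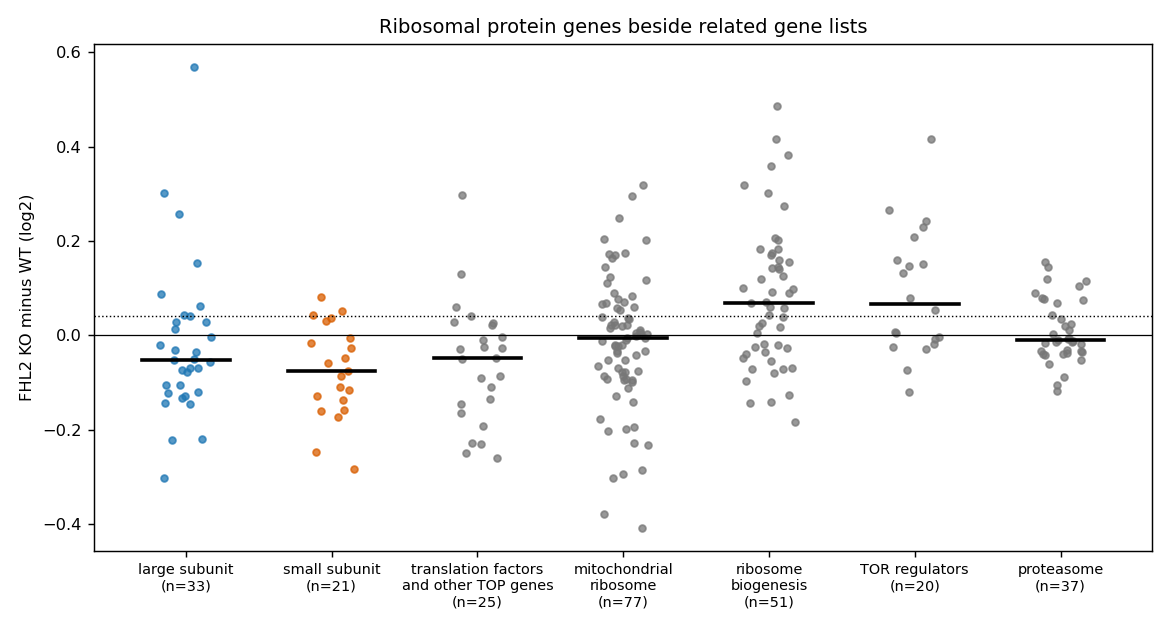
Difference (FHL2 KO minus WT, log2) of each gene past the level filter in 7 lists, with a black bar at the list's median, a solid line at 0 and a dotted line at the median of all genes (0.04). The bars stand at -0.05 for the large and -0.08 for the small subunit, at -0.05 for translation factors and other TOP genes, and at 0.07 for ribosome biogenesis and for TOR regulators.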

How the data were processed

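Liver RNA of 1 FHL2 KO pool and 1 WT pool, 300 ng each, was labelled with biotin and hybridised to 1 array each. The deposited values are log2 per probe set, and per the submitters' processing notes Affymetrix Expression Console 1.0, RMA and Partek 6.4 were used, with no order given. The build was not given in the sources used here, nor were settings. Array medians were 5.71 in the FHL2 KO pool and 5.76 in the WT pool, and a change in total RNA per cell cannot be read from such values.

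Probes were named from the platform annotation, where 21789 of 28853 had 1 symbol, 1621 several and 5443 none. Of 77 canonical genes listed, 23 (13 large, 10 small subunit) had no probe of a single symbol and were not analysed here. A gene was read from its probe with the highest mean. The level filter is the 40th percentile of probes with 1 symbol, 5.44. Thresholds were 1.5-fold and 0.2 on the log2 scale. The number of arrays limits the precision. The code for medians and probe spread was tried on simulated data, with larger group differences set in than those reported and independent probes. It checks the code and not the results.

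Members, lists and thresholds were chosen with earlier results of these data known. Named were members past 1.5-fold, the 6 lowest and 4 highest of each subunit, all paralogs, every member with several probes, the 3 brightest and 3 dimmest canonical genes, Fau, and up to 4 genes at least 0.3 from 0 of the lists of TOP translation factors, ribosome biogenesis and TOR regulators. Genes named beyond this rule (Eef1b2, Eef1a1, Naca, Eef1d, Larp1, the 4 mitochondrial ribosomal protein genes, Alb and Alas2, and other canonical genes with 1 probe) were chosen after their values were seen. Alternatives were a common median, lowess with a span of 0.3, no filter, the 60th percentile, the mean over probes, the dimmest probe and every member by prefix. Added after seeing the data were probes beside the gene and identical probes counted once. Python 3.11.15 and statsmodels 0.14.6 were used.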

Additional observations from a re-analysis of the deposited data

How the results depend on the processing

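The median difference of the canonical genes stayed below 0 under each of the 8 alternatives. It lay between -0.0864 (dimmest probe) and -0.0168 (both arrays at a common median, which puts the median of all genes at 0.08). Leaving out the filter could not change it, because all 54 pass. The 60th percentile left 53 of them, and the prefix setting took 61 members in place of the 54. The large subunit ran from -0.0805 to -0.0116, the small subunit from -0.1029 to -0.0343, and large minus small from 0.0209 to 0.0554 (probes beside the gene). Genes below 0 numbered 31 of 54 after the common median, 43 with the mean over probes and 29 of 48 with probes beside the gene. The count at least 0.2 lower was 5 as reported, 3 after the common median, 9 with the dimmest probe and 1 with probes beside the gene. That 1 is Rps18, none of the 5: 4 of these have no such probe and Rps13 is at -0.19. As reported, 40.4% of all genes were below 0 and 9.76% at least 0.2 lower. These shares are not given for the alternatives, so the changed counts cannot be set against all genes. Members past 1.5-fold became 2 after the common median, which adds Rpl30, and 0 with the filter at the 60th percentile, which drops Rpl10l. The SD between probes was 0.143 over all genes and 0.146 with identical probes counted once. For canonical genes alone, not matched for level, it was 0.0764. Signs changed in 7 of 54 canonical genes with the mean over probes, 10 with the dimmest probe, 3 after lowess and 4 of 48 with probes beside the gene. No paired analysis was possible because each group has 1 array.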

Other observations

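Probes annotated to several symbols, of which at least 1 is a canonical ribosomal protein gene, were left out above because they cannot be named. There were 235 of them, and 216 lay below 0, with a median difference of -0.11 and a range from -0.65 to 0.40. Of the 235, 38 were at least 0.2 lower in the FHL2 KO pool (16.2%), close to the 16.0% of all 1621 probes with several symbols, and 4 were as much higher (1.70%, against 11.5%). All 1621 probes with several symbols had a median of -0.04, with 956 below 0, and the 235 are part of them. Whether they share sequence with the probes of the named genes was not tested, so they are not given as an independent repeat.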
